A study of Mus musculus with 15 samples.

Results

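The genes described here encode the receptors through which spinal motor neurons receive glutamate, GABA and glycine. They were taken by symbol from the deposited gene table, as AMPA (Gria), kainate (Grik), NMDA (Grin) and metabotropic (Grm) glutamate receptor genes, GABA-A subunit genes (Gabra, Gabrb, Gabrg and Gabrd), GABA-B genes (Gabbr) and glycine receptor genes (Glra and Glrb). Of 36814 rows, 44 carried such a symbol, and 38 of these were kept because at least 3 libraries held 10 or more reads. The 6 left out were Gabra6 and Grm6, which had no read in any library, and Gabrd, Glra4, Grin2c and Grm2, of which the last 2 reached 10 reads in 1 library each. Just inside the limit were Grm8, with 10 or more reads in 6 libraries, Grin3b in 9 and Glra3 in 12. All 38 kept genes also passed the filter on low counts and were among the 14340 genes tested.

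The libraries came from motor neurons of wild-type mice at postnatal day 6. The motor neurons of 1 muscle form its motor pool, and 5 hind-limb pools had 3 libraries each. TA supplies the tibialis anterior and EDL the extensor digitorum longus, both on the front of the shin. PL supplies the peroneus longus at its side, GS the gastrocnemius of the calf, and IF the intrinsic muscles of the foot. There was no untreated group, since every muscle had received a fluorescent cholera toxin B tracer at day 4 that marked its neurons for laser capture. Each library pooled 30 to 40 cells of 2 to 5 animals. The labels do not link libraries to animals, so the p-values measure the spread between pooled libraries, which may be partly technical.

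Ionotropic receptors are ion channels built from several subunits, so the mixture of subunits that a neuron makes sets how its synapses behave. AMPA receptors carry most fast excitation, and the subunit encoded by Gria2 limits their passage of calcium. NMDA receptors need the subunit encoded by Grin1, which is joined by Grin2 or Grin3 products. Glycine receptors and GABA-A receptors are chloride channels that carry fast inhibition of motor neurons. In the spinal cord the glycine receptor made with the Glra2 product prevails before birth, and the receptor made with the Glra1 and Glrb products takes over during the first weeks of life. GABA-B and metabotropic glutamate receptors act through G proteins.

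Counts summed to between 4417114 and 8488368 per library. PL 2 and PL 3 stood apart, with 11019 and 10548 genes detected against 13092 to 17321 in the 13 others, while 25.7% and 29.2% of tested genes had 0 reads there against 0.732% to 13.7%. PL 2 had the highest level of all 15 libraries for 7 of the 38 receptor genes and the lowest, ties included, for 11, and PL 3 had the highest for 10 and the lowest for 4. Over all tested genes PL 2 and PL 3 were the highest library for 15% and 16.1%, and the lowest, ties included, for 38% and 43.4%. Results on PL are therefore given with and without these libraries. The summed level of 10 motor neuron markers was 19142 to 76762 CPM (counts per 1000000 reads, scaled between libraries by the TMM method), and Isl1 of that list was at 0 in all TA and PL libraries. Markers of other cells were present as well. Their sums were 1155 to 3415 CPM for 8 astrocyte markers, 224 to 2345 for 10 oligodendrocyte markers, 3.56 to 364 for 5 markers of inhibitory interneurons, 9.90 to 198 for 4 of excitatory interneurons, 1.97 to 211 for 7 of microglia, 6.71 to 251 for 6 of fibroblasts and meninges, and 12.4 to 87.6 for 5 of endothelium. In such pooled samples fewer cells of a type and less RNA per cell cannot be told apart.

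The receptor genes took between 0.560% and 0.854% of the reads of a library. On the scale that divides reads by gene length (RPKM, reads per kilobase and 1000000 reads, as computed by the authors), glycine receptor genes had the highest summed level of the 9 subfamilies in every pool, from 139 ± 4.59 RPKM in IF (SD, n = 3) to 381 ± 217 in PL. The GABA-A alpha genes followed with 90.9 ± 12.8 RPKM in TA to 125 ± 8.26 in EDL. The AMPA, GABA-A beta, GABA-B and NMDA genes lay between 49.0 and 86.8 RPKM in each pool mean, the GABA-A gamma genes between 19.6 and 38.4, and the kainate and metabotropic genes between 13.6 and 23.0. By single gene, the highest mean RPKM values over the 15 libraries included those of Glra2 at 118 ± 107, Glra1 at 62.6 ± 36.4 and Gabbr1 at 56.3 ± 12.1. The lowest belonged to Grm8 at 0.101 ± 0.145.

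**Figure D1:**
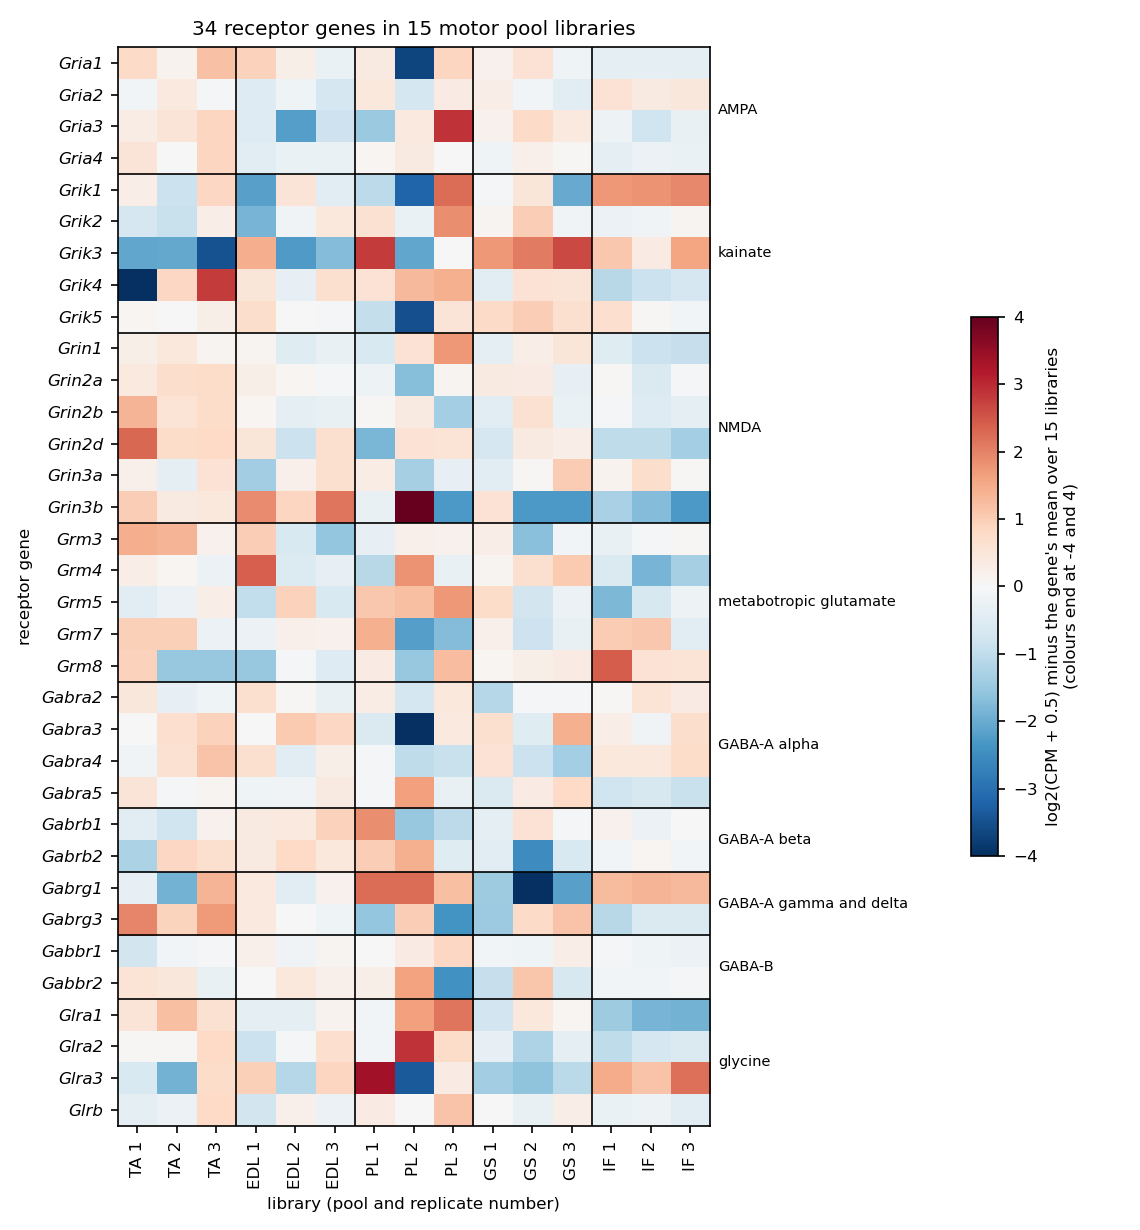
Level of 34 receptor genes (rows, grouped by subfamily) in each of the 15 libraries (columns, grouped by pool), as log2(CPM + 0.5) minus the gene's mean over the libraries; red is above that mean and blue below. The 3 IF columns resemble each other, while the columns of PL 2 and PL 3 hold many of the deepest colours.

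The 5 pools held largely the same set of receptor transcripts, and few of them passed a test of the difference against the spread between libraries. The test for any difference among the 5 pools passed 1 of the 38 genes, Glra1, against 1.31% of all tested genes. At an unadjusted p under 0.05 it had 11 of 38, against 15.5% of all tested genes. Against the mean of the other 4 pools, PL had 5 genes that rose (background 4.5% of tested genes in that direction, 4.87% in both), IF had 1 that fell (0.397% in that direction, 1.1% in both), and TA, EDL and GS had none by edgeR (background 0.418%, 0.0976% and 0.126%). At an unadjusted p under 0.05 TA, EDL and GS had 6, 3 and 3 of the 38, against 12.3%, 6.42% and 5.82% of all tested genes, and DESeq2 called 2, 1 and 1, against 3.03%, 0.481% and 0.397% of all tested genes. Without PL 2 and PL 3 the counts were 5 genes for any difference (background 1.44%), 4 for TA (1.44%), 0 for PL (0.061%) and 1 for IF (0.952%). The 4 in TA were Glra1, Gabrg3 and Grin2d, which rose by 1.28, 1.99 and 2.12 on the log2 scale, and Grik3, which fell by 4.22. Of the 10 pairs of pools, PL against IF gave 2 genes (background 0.9%), TA against IF gave 1 (0.628%) and the other 8 gave none. The backgrounds of those 8 were 0.0907% for TA against EDL, 0.23% for TA against PL, 0.0628% for TA against GS, 0.0488% for EDL against PL, 0.0697% for EDL against GS, 0.202% for EDL against IF, 0.119% for PL against GS and 0.126% for GS against IF.

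PL had the highest mean level of the 5 pools for 17 of the 38 receptor genes, which held for 29% of all tested genes, and IF had the lowest for 14, which held for 18.1%. With PL 1 as the only PL library these counts were 12 (21% of all tested genes) and 12 (17.4%), and TA was highest for 15 (26.8%). The median log2 fold of the 38 genes against the other pools was 0.49 in PL, with 27 of 38 above 0, where all tested genes had a median of -0.06 and 48% above 0. In IF it was -0.27, with 14 of 38 above 0, where all tested genes had 0.02 and 51.2%. TA, EDL and GS had medians of 0.16, -0.20 and -0.01, with 25, 14 and 18 of 38 above 0, against 0.06, 0.06 and 0.04 over all tested genes, with 52.7%, 53.7% and 52.9% above 0. Scaling by library totals alone moved the median of all tested genes to -0.37 in PL and 0.33 in IF. The receptor genes then stood at 0.07 and 0.03, which lay above that of all genes in PL and below it in IF as before. Without PL 2 and PL 3 the median of the receptor genes in PL was 0.10, against -0.15 over all genes. The median of the genes' mean levels was 81.2 CPM for the receptor genes and 18.8 for all tested genes. The backgrounds given here are therefore not matched for level, and the part of level in these differences was not tested.

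Among the glycine receptor genes was the one with the smallest p for any difference. Glra1, the alpha subunit of the mature receptor, was lowest in IF and highest in PL and TA. Values of a pool are given here and below in the order of its replicates 1, 2 and 3. Glra1 stood at 371, 586 and 388 CPM in TA, at 197, 201 and 284 in EDL, at 240.3, 801 and 1143 in PL, at 152, 343 and 271 in GS, and at 95.1, 71.1 and 69.0 in IF. The 3 IF libraries lay below the 12 others, which held for 2 of the 38 receptor genes and for 1.22% of all tested genes, and PL 1 lay within the range of EDL and GS. The mean of PL was 9.28 times that of IF. Reads of Glra1 numbered 477 to 5179 per library.

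For Glra1 the test for any difference gave an adjusted p of 0.00810, and it was lost without IF 2 or IF 3. In IF against the other 4 pools its log2 fold was -2.24 ± 0.41 (SE, adjusted p = 0.00941). Without PL 2 and PL 3 this was -1.82 (adjusted p = 0.00323), while the call was lost without IF 1, without IF 2 and without IF 3, with an adjusted p of up to 0.111. In PL against the other 4 it was 1.78 ± 0.31 (adjusted p = 0.00452), and 0.17 ± 0.39 (adjusted p = 1.00) without PL 2 and PL 3. TA exceeded IF by 2.51 ± 0.47 (adjusted p = 0.0109), with 2.48 (adjusted p = 0.000386) without PL 2 and PL 3, and PL exceeded IF by 3.21 ± 0.48 (adjusted p = 0.00216), with 1.59 (adjusted p = 0.357) without them. The difference between TA and IF was not called without TA 2, IF 1, IF 2 or IF 3, and it is also in the authors' deposited list of genes higher in TA than in IF, with mean normalized counts of 2959 and 518.5 (adjusted p = 0.000452). Glra1 (ENSMUSG00000000263) lies on the minus strand of mm9 chromosome 11 from 55327740 to 55421701. A gene model on the opposite strand, Gm12236, overlaps it with 451 reads in all against 29979 for Glra1, and the library kit does not mark strand.

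Glra2, the alpha subunit that prevails in the fetal receptor, was the most abundant glycine receptor transcript per length in 12 of 15 libraries. It stood at 633, 627 and 1049.9 CPM in TA, at 338, 595 and 971 in EDL, at 568, 4537 and 1023 in PL, at 481, 258 and 472 in GS, and at 303, 379 and 406 in IF. PL 2 was far above the next highest library, TA 3, and the other PL libraries lay within the range of TA and EDL. In PL against the other 4 pools the log2 fold was 1.98 ± 0.39 (adjusted p = 0.00783). It was 0.62 (adjusted p = 0.336) without PL 2, and 0.13 ± 0.43 (adjusted p = 1.00) without PL 2 and PL 3. PL exceeded IF by 2.49 ± 0.58 (adjusted p = 0.0442), a call that was kept in 2 of 15 fits that each left out 1 library, with 1.13 as its lowest value.

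Glrb, the beta subunit that anchors the receptor at the synapse, ranged less widely. It stood at 225, 247 and 512 CPM in TA, at 175, 335 and 249 in EDL, at 368, 289 and 649 in PL, at 293, 238 and 347 in GS, and at 242, 251 and 216 in IF, and its test for any difference did not pass (adjusted p = 0.563). Glra3, a minor alpha subunit, had 52.7 CPM in PL 1 and 10.7 to 23.3 in IF, against 0 to 9.50 in the 11 other libraries. The test for any difference did not pass (adjusted p = 0.497).

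The make-up of the glycine receptor transcripts followed from these levels. By RPKM, Glra1 made up 14.7% ± 3.40 (SD, n = 3) of the summed glycine receptor genes in IF, against 26.4% ± 6.19 in EDL, 30.1% ± 15.6 in PL, 33.2% ± 13.8 in GS and 36.1% ± 11.1 in TA. Glrb made up 32% ± 3.08 in IF and between 17.2% and 27.1% in the other pool means. The ratio of Glrb to Glra1 RPKM was 1.84 to 2.56 in the 3 IF libraries and 0.261 to 1.39 in the 12 others. The share of Glra2 was 51.7% ± 5.66 in IF and 39.6% to 52.0% in the other pool means. These shares use the same levels as the tests above and were not tested apart from them.

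**Figure D2:**
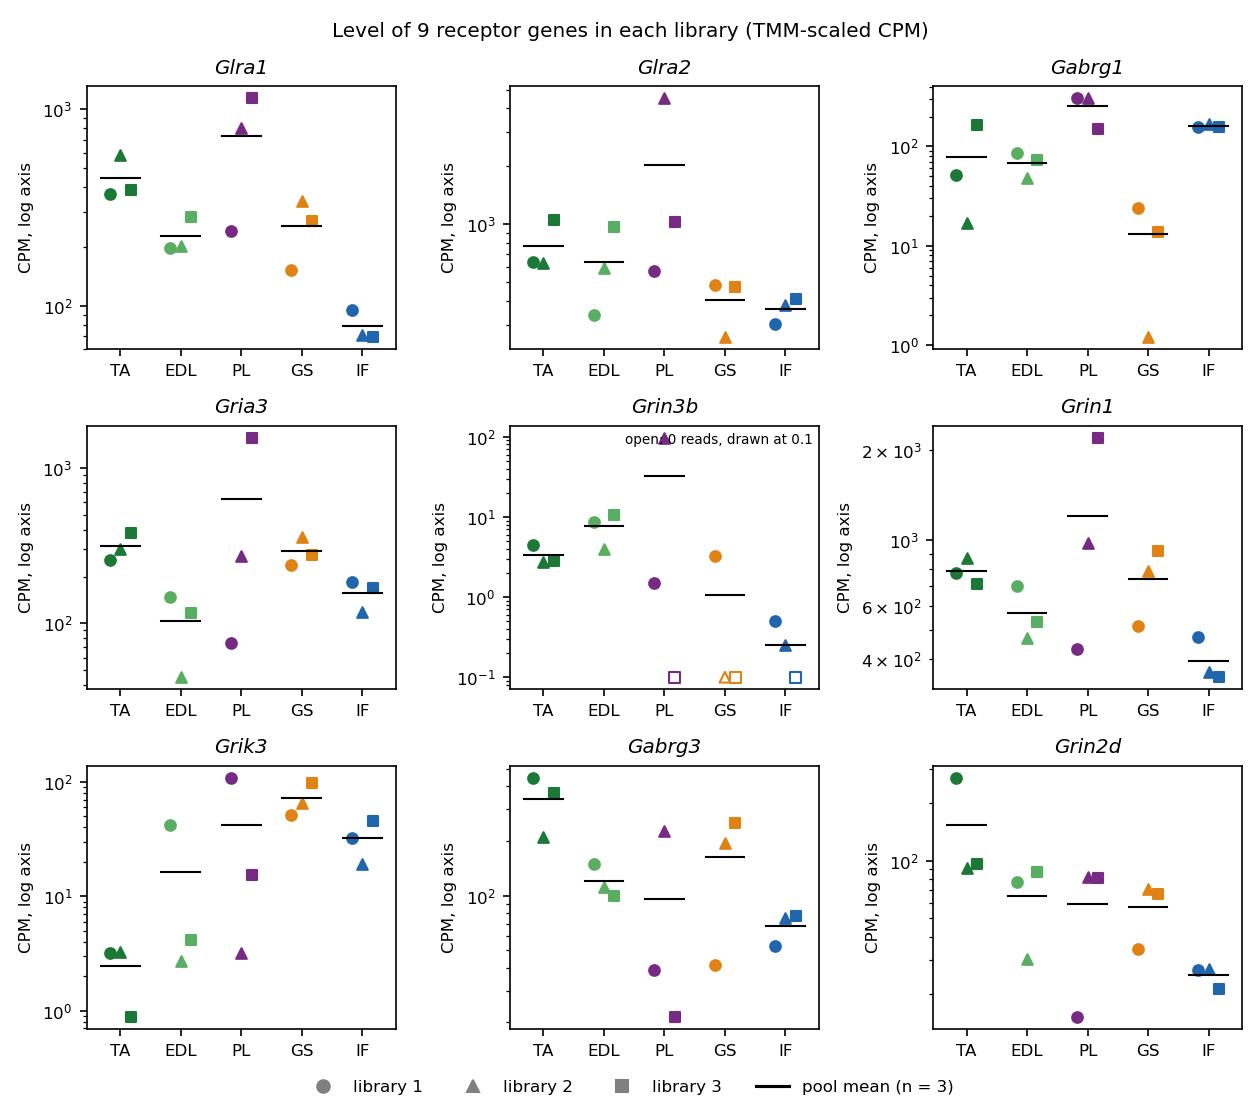
TMM-scaled CPM (log axis) of 9 receptor genes in each library by pool, with symbols for replicates 1, 2 and 3 and a bar for the mean of 3 libraries; open symbols mark libraries with 0 reads, drawn at 0.1. Glra1 is lowest in the 3 IF libraries. By pool mean Gabrg1 is lowest in GS and Grik3 in TA, though single libraries of other pools overlap them. The high PL means of Glra2, Gria3 and Grin3b each rest on 1 library.

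GABA-A receptors combine alpha, beta and gamma subunits, and Gabrg1, which encodes a gamma subunit, showed the widest contrast of this family. It stood at 51.7, 17 and 165 CPM in TA, at 85.8, 47.6 and 72.9 in EDL, at 306, 308 and 151 in PL, at 23.8, 1.19 and 13.9 in GS, and at 157, 167 and 159 in IF. PL and IF were high in each library, and GS overlapped only TA 2 among the others. In PL against the other 4 pools its log2 fold was 2.14 ± 0.53 (adjusted p = 0.0250). The fold was as large, 2.39 ± 0.72, but not called without PL 2 and PL 3 (adjusted p = 0.374), and the call was also lost without EDL 2, PL 2, IF 1, IF 2 or IF 3. The fall in GS against the other 4, -3.23 ± 0.75, did not pass (adjusted p = 0.166), nor did GS against IF at -3.63 ± 0.83 (adjusted p = 0.155), which DESeq2 called, as did the authors' deposited list of genes higher in IF than in GS. That list gives mean normalized counts of 1126 and 91.48 (adjusted p = 4.61e-08). Gabrg1 (ENSMUSG00000001260) lies on the minus strand of mm9 chromosome 5 from 71142286 to 71233857.

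Glra2 and Gabrg1 were both called higher in PL, the first on 1 library and the second with a like size in PL 1 alone. The 250 bases before their annotated start are shown from RefSeq (GRCm38.p6), so that the promoters of these differently supported genes can be compared. That of Glra2 (chrX:165327394-165327643, minus strand) is 50.4% G or C with 8 CG pairs, and that of Gabrg1 (chr5:70842618-70842867, minus strand) is 35.6% with 1. Both are 5′ to 3′, and capitals mark the motif named after each.
Glra2: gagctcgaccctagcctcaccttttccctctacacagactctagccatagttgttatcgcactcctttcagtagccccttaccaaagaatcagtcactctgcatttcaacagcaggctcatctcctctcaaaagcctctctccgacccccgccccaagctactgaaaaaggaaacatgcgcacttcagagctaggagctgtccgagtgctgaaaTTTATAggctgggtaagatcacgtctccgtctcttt
Gabrg1: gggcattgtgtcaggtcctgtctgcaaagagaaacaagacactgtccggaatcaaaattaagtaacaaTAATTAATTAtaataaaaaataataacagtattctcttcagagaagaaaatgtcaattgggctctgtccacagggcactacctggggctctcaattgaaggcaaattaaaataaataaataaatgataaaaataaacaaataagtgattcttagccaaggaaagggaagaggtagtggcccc
In Glra2 the capitals are TATAAA on the opposite strand, starting 36 bases before the annotated start, and in Gabrg1 they are 2 overlapping matches of TAATTA, the first starting 182 bases before it. Of the 38 receptor genes 25 had an entry. In windows of 300 bases, on either strand, TATAAA was in 13.6% of all 32851 promoters and in those of 4 receptor genes (Gabra3, Gabrb2, Glra2 and Grin3b). TAATTA was in 5.29% of all promoters and in that of Gabrg1 alone among the 25. GGGCGG was in 35.7% of all promoters and in those of 16 receptor genes, Glra2 among them. The percentages count promoter entries, whereas a receptor gene counted once if any of its entries matched. Gabra3 had 2 entries and Gabrb2 had 3, so the units are unlike. A match describes the letters only.

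Gabrg3, another gamma subunit, was highest in TA at 445, 210.0 and 369 CPM, against 149, 111 and 99.97 in EDL, 39.0, 226 and 21.4 in PL, 41.5, 195 and 251 in GS, and 52.4, 75.4 and 76.8 in IF. It is named here because it is in the authors' deposited list of genes higher in TA than in IF (mean normalized counts 2248 and 451.5, adjusted p = 0.00209). In the fit over all libraries that difference was 2.32 ± 0.72 and did not pass (adjusted p = 0.200). It was called without PL 2 and PL 3. By pool mean Gabrg3 was thus highest in TA, and Gabrg1 in PL, followed by IF. Single libraries overlapped, since Gabrg1 in TA 3 lay within the ranges of PL and IF, and Gabrg3 in PL 2 and GS 3 exceeded TA 2.

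Among the alpha genes Gabra5, whose product is found largely outside synapses, led in 9 libraries and Gabra2 in 6. Gabra5 stood at 375, 247 and 282 CPM in TA, at 234, 237 and 339 in EDL, at 248, 819.9 and 215 in PL, at 175, 333 and 456 in GS, and at 151, 169 and 143 in IF. As for Glra1, the 3 IF libraries lay below the 12 others, but the log2 fold of -1.08 ± 0.38 did not pass (adjusted p = 0.276). Gabra2 made up 53.2% ± 3.72 (SD, n = 3) of the alpha RPKM in IF and 28.8% to 39.9% in the other pool means, with levels between 81.9 and 285 CPM over the 15 libraries. Its IF libraries lay above those of GS and overlapped those of TA, EDL and PL, and GS against IF did not pass at -0.69 ± 0.41 (adjusted p = 1.00). Gabra3 and Gabra4 were minor, with mean shares of 7.06% and 2.93% over the 15 libraries.

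Among the GABA-A beta genes, none was called in any comparison. Gabrb2 was the one with the smallest p (adjusted 0.512), at 20.4, 89.4 and 77.9 CPM in TA, at 64.6, 87.6 and 67.1 in EDL, at 99.9, 135 and 35.3 in PL, at 37.4, 8.34 and 32.8 in GS, and at 46.0, 52.6 and 46.7 in IF. GS lay below EDL and IF, and the other pools overlapped it. Gabrb1 ranged from 15.7 to 165 CPM.

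The GABA-B receptor works only as a pair of the Gabbr1 and Gabbr2 products. Gabbr1 varied little. It stood at 309, 482 and 500.1 CPM in TA, at 599, 474 and 561 in EDL, at 523, 656 and 912 in PL, at 479, 458 and 621 in GS, and at 488, 459.6 and 443 in IF (adjusted p = 0.541 for any difference). Its SD of log2 level within a pool was 0.28, against a median of 0.85 over the receptor genes and 1.15 over all tested genes. Gabbr2 stood at 243, 224 and 136 CPM in TA, at 167, 223 and 189 in EDL, at 194, 505 and 30.4 in PL, at 87.7, 355 and 106 in GS, and at 152, 154 and 159 in IF (adjusted p = 0.985). PL 2 and PL 3 held its highest and lowest levels of the 15 libraries. Gabbr1 exceeded Gabbr2 by RPKM in each of the 15 libraries, with 77.2% ± 10.2 of the sum (SD over 15 libraries).

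AMPA receptor genes were led by Gria4, a subunit of fast-gating receptors, in 12 of 15 libraries, with 43.9% ± 9.18 of the AMPA RPKM (SD over 15 libraries). Gria4 stood at 539, 378 and 692 CPM in TA, at 286, 318 and 314 in EDL, at 402, 487 and 377 in PL, at 338, 434 and 393 in GS, and at 288, 324 and 319.7 in IF. TA lay above EDL and IF in each library, and the test for any difference did not pass (adjusted p = 0.320). Gria2 stood at 246, 349 and 253 CPM in TA, at 184, 233 and 164 in EDL, at 357, 162 and 330.1 in PL, at 315, 248 and 194 in GS, and at 399, 343 and 361 in IF. Its IF libraries did not overlap those of EDL and GS, with a log2 fold of 0.56 ± 0.26 in IF against the other 4 that did not pass (adjusted p = 0.511). Gria2 made up 41.3% ± 2.02 of the AMPA RPKM in IF (SD, n = 3), and 23.5% ± 7.97 in TA, 23.8% ± 11.4 in PL, 25.6% ± 6.41 in GS and 27.0% ± 4.70 in EDL. The ratio of Gria2 to Gria4 RPKM was 0.955 to 1.25 in IF and 0.300 to 0.841 in the 12 other libraries.

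Gria3 was called higher in PL, on 1 library. It stood at 255, 301 and 382 CPM in TA, at 147, 45.0 and 116 in EDL, at 74.9, 271 and 1559.8 in PL, at 237, 357 and 276 in GS, and at 183, 119 and 169.6 in IF. PL 3 was the highest of the 15 libraries and PL 1 the second lowest. In PL against the other 4 pools the log2 fold was 1.70 ± 0.48 (adjusted p = 0.0491). It turned to -0.18 without PL 3 and to -1.39 ± 0.53 (adjusted p = 0.647) without PL 2 and PL 3, and the call was kept in 2 of the 15 fits that left out 1 library. TA and GS lay above EDL and IF in each library. Gria3 (ENSMUSG00000001986) lies on the plus strand of mm9 chromosome X from 38754031 to 39031779. Gria1 ranged from 5.43 CPM in PL 2 to 171 in TA 3 and held 10.3% ± 4.49 of the AMPA RPKM (SD over 15 libraries).

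**Figure D3:**
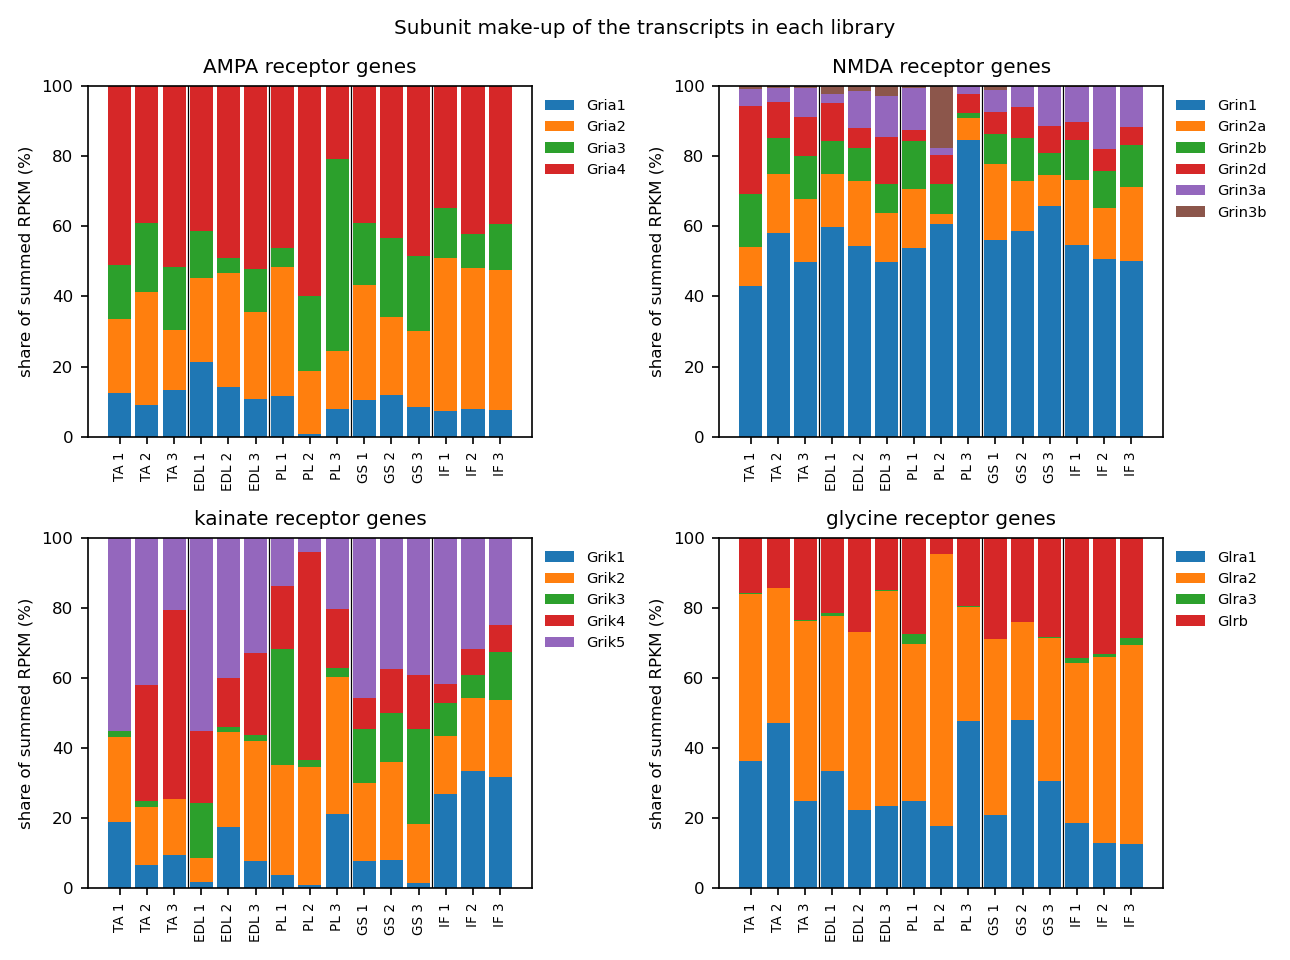
Share of the summed RPKM of a subfamily (bars stacked to 100%) held by each AMPA, NMDA, kainate and glycine receptor gene in each of the 15 libraries. The IF libraries have the highest Gria2 shares, the Grik1 share is also highest in the IF libraries, and the share of Glra1 in IF lies between 12.6% and 18.7%.

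NMDA receptor genes were led by Grin1 in all 15 libraries, with 56.7% ± 9.49 of the NMDA RPKM (SD over 15 libraries). Grin1 (ENSMUSG00000026959, mm9 chromosome 2 from 25146701 to 25174708, minus strand) stood at 773, 873 and 714 CPM in TA, at 704, 469.7 and 532 in EDL, at 431, 975 and 2204 in PL, at 515, 790.4 and 923 in GS, and at 472, 362 and 347 in IF. Like Glra1 it was lowest on average in IF and highest in PL, yet neither its log2 fold in IF, -1.01 ± 0.35 (adjusted p = 0.243), nor that in PL, 1.00 ± 0.30 (adjusted p = 0.0623), passed. The latter was -0.48 ± 0.33 without PL 2 and PL 3. The antisense model E130003G02Rik overlaps Grin1 with 22574 reads in all against 68698, and without strand the reads of both cannot be told apart.

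Grin2d, whose product joins Grin1 in early life, was highest in TA. It is named through the authors' deposited list of genes higher in TA than in IF (mean normalized counts 1004 and 165.9, adjusted p = 0.00812). It stood at 271, 91.7 and 95.8 CPM in TA, at 77.5, 30.4 and 86.9 in EDL, at 15.2, 81.8 and 81.4 in PL, at 34.5, 71.0 and 66.6 in GS, and at 26.9, 27.1 and 21.3 in IF. The 3 TA libraries lay above the 12 others for Grin2d and Grin2a, which made 2 of the 38 receptor genes against 0.635% of all tested genes. TA exceeded IF by 2.61 ± 0.68 on the log2 scale, which did not pass (adjusted p = 0.106), but was called by DESeq2 and without PL 2 and PL 3. Grin2a ranged from 25.6 CPM in PL 2 to 139 in TA 3, Grin2b from 34.4 in PL 3 to 228 in TA 1, and Grin3a from 48.8 in EDL 1 to 258 in GS 3. The ratio of Grin2b to Grin2a RPKM was under 1 in 13 of 15 libraries, with 1.35 in TA 1 and 2.91 in PL 2.

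Grin3b, whose product is known from motor neurons, was sparse. It stood at 4.41, 2.71 and 2.81 CPM in TA, at 8.69, 3.96 and 10.5 in EDL, at 1.52, 96.8 and 0 in PL, at 3.22, 0 and 0 in GS, and at 0.509, 0.250 and 0 in IF. PL 2 held 303 of its 597 reads, and 0 reads allow up to 0.434 to 0.662 CPM in the libraries concerned (3 reads, counting error only). The EDL libraries were above those of TA, GS and IF but for the overlap of EDL 2 with TA 1. In PL against the other 4 pools its log2 fold was 4.28 ± 1.20 (adjusted p = 0.0469), a size that depends on pools near 0. It was -1.06 without PL 2 and -0.13 ± 2.26 without PL 2 and PL 3. Grin3b (ENSMUSG00000035745) lies on the plus strand of mm9 chromosome 10 from 79433460 to 79439936. A model on the opposite strand, ORF61, overlaps it with 3765 reads, so its counts are uncertain.

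Kainate receptor genes were low, and Grik3 was the one with the smallest p. It stood at 3.22, 3.25 and 0.879 CPM in TA, at 42.3, 2.72 and 4.14 in EDL, at 109, 3.19 and 15.2 in PL, at 51.5, 65.9 and 97.6 in GS, and at 32.1, 19.1 and 45.7 in IF. TA was low and GS and IF high in each library, while EDL and PL each held 1 high library, EDL 1 and PL 1. TA against GS gave a log2 fold of -4.86 ± 1.27 that did not pass (adjusted p = 0.400). It was called by DESeq2 and without PL 2 and PL 3, and the authors' deposited list of genes higher in GS than in TA holds it with a fold of 30.03 (adjusted p = 0.00263). Grik3 (ENSMUSG00000001985) lies on the plus strand of mm9 chromosome 4 from 125167944 to 125391418. Grik5, whose product forms receptors only with another kainate subunit, led by RPKM with 33.7% ± 14.6 (SD over 15 libraries). It stood at 40.7, 38.6 and 45.4 CPM in TA, at 62.9, 37.9 and 36.5 in EDL, at 19.4, 2.87 and 54.7 in PL, at 64.8, 76.6 and 60.6 in GS, and at 61.2, 39.1 and 35.4 in IF (adjusted p = 0.825). Grik1 was at 34.1 to 39.1 CPM in IF and made up 30.7% ± 3.37 of the kainate RPKM there (SD, n = 3), against 5.81% to 11.7% in the other pool means, although PL 3 reached 49.4 CPM. Grik2 ranged from 16.5 to 227 CPM, and Grik4 from 0 in TA 1 to 182 in TA 3.

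Metabotropic glutamate receptor genes were low per length, with pool means of 13.6 to 16.5 RPKM, and none was called. Grm5, a group I receptor that acts through phospholipase C, was at 18.0, 20.9 and 30.1 CPM in TA, at 12.3, 47.9 and 16.1 in EDL, at 52.7, 58.1 and 84.3 in PL, at 42.0, 14.8 and 21.1 in GS, and at 6.82, 16 and 21.8 in IF. Its 3 PL libraries lay above the 12 others, which held for no other receptor gene and for 0.621% of all tested genes. The log2 fold in PL, 1.58 ± 0.53, did not pass (adjusted p = 0.0920), and was 1.27 ± 0.75 without PL 2 and PL 3. Grm7, a group III receptor that couples to inhibitory G proteins and had the highest mean RPKM of the family, was at 32.4, 32.3 and 14.1 CPM in TA, at 13.9, 19.0 and 18.9 in EDL, at 45.7, 3.19 and 4.63 in PL, at 19.3, 9.19 and 13.4 in GS, and at 34.1, 35.7 and 12.2 in IF (adjusted p = 0.965 for any difference). Grm3 ranged from 5.28 to 49.9 CPM, Grm4 from 8.12 to 163 and Grm8 from 0 to 7.23.

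**Figure D4:**
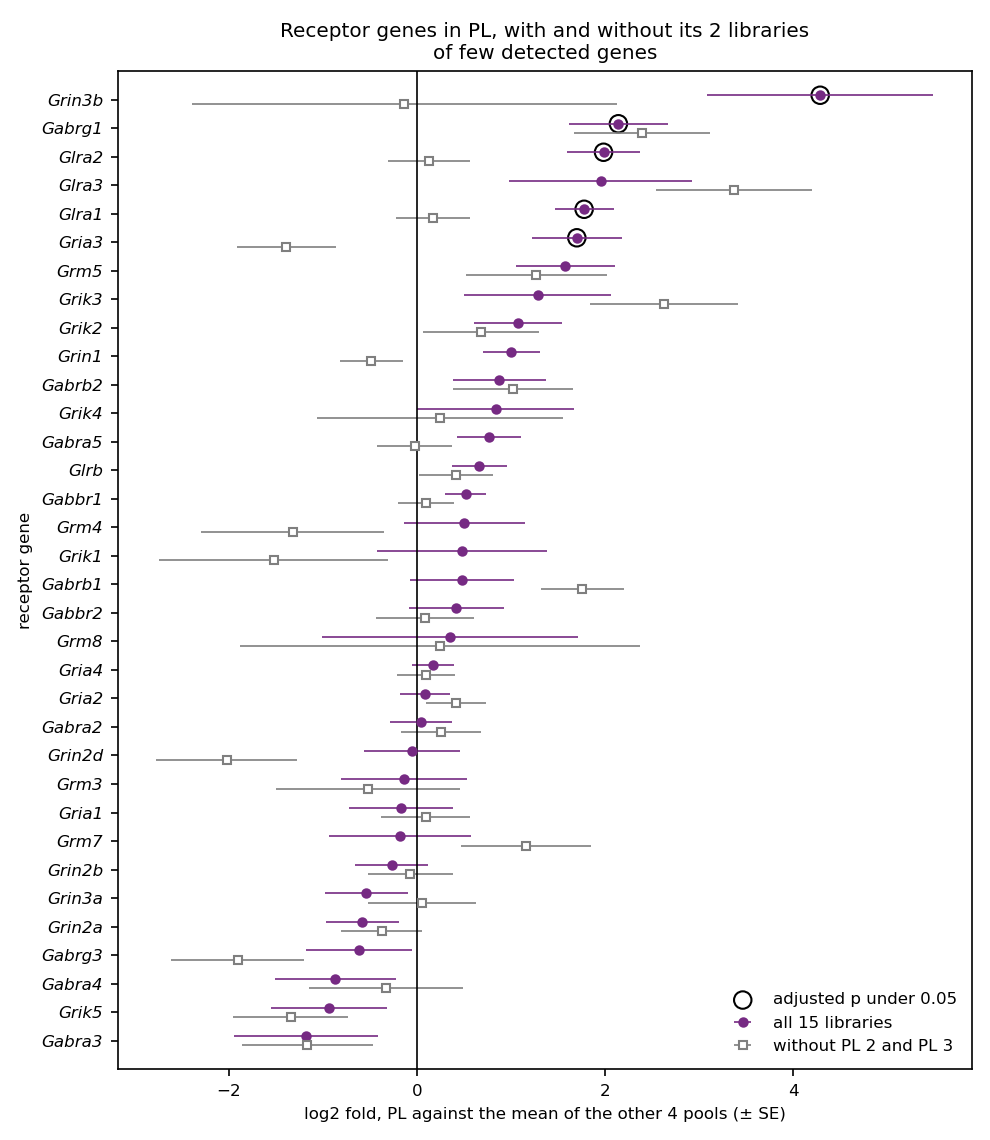
Log2 fold of 34 receptor genes in PL against the mean of the other 4 pools (points, ± SE), with all 15 libraries (filled) and without PL 2 and PL 3 (open squares); rings mark an adjusted p under 0.05. Of the 5 ringed genes Gabrg1 kept its size without these libraries, while Glra1 and Glra2 came close to 0 and Gria3 and Grin3b fell below it.

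Some markers of other cells were also called in PL, IF, TA and EDL, and the marker lists did not all move the same way. Of all tested genes 4.5% were called higher in PL and 0.397% lower in IF. In either direction 0.418% were called in TA, 0.0976% in EDL and 0.628% in TA against IF. In PL, 2 of 10 oligodendrocyte markers were called higher, with sums of 434 CPM in PL 1, 2345 in PL 2 and 728 in PL 3 against 224 to 1543 in the other pools and no marker at 0 in all PL libraries. Of the inhibitory interneuron list 0 of 4 tested markers were called, with sums of 21.3, 254 and 364 in PL against 3.56 to 181 elsewhere and Pax2 at 0 in PL. Of the motor neuron markers, 2 of 10 were called higher. None of the astrocyte, microglia, fibroblast, endothelium or excitatory interneuron markers was called in PL. Their median log2 folds in PL were 0.04 for astrocyte, -1.09 for microglia, 0.56 for fibroblast and -0.62 for endothelium markers. Sums of the excitatory interneuron list were 167 CPM in PL 1, 9.90 in PL 2 and 10.4 in PL 3. In IF, 2 of 10 oligodendrocyte markers were called lower, with sums of 224 to 237 CPM against 304 to 2345 elsewhere, and so was 1 of 8 astrocyte markers, with sums of 1155 to 1460 against 1238 to 3415. No marker of these 2 lists was at 0 in all IF libraries, and 1 of 10 motor neuron markers was called lower there and 1 higher. In TA, 1 of 10 oligodendrocyte markers was called higher, with sums of 699.8 to 1543 CPM and a median log2 fold of 1.63, against 0.06 over all tested genes. In TA against IF 2 of 10 oligodendrocyte markers (median 2.80) and 1 of 8 astrocyte markers (median 0.79) were called higher, and without PL 2 and PL 3 the counts in TA against the other 4 pools were 3 of 10 and 1 of 8. Sums of the astrocyte list in TA were 2154 to 3415 CPM, and no marker of these 2 lists was at 0 in all TA libraries. In EDL, 1 of 4 tested fibroblast and meninges markers was called higher, with sums of 101 to 251 CPM against 6.71 to 108 elsewhere. It was Dcn, at 5.91 ± 0.92 on the log2 scale (edgeR, adjusted p = 0.00899) and at 5.61 without PL 2 and PL 3. The median log2 fold of that list in EDL was 0.13. The part of these cells in the receptor results was not tested.

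Other genes of the same synapses were also called in PL and IF. A list of glutamate receptor partners held mostly auxiliary subunits, scaffolds and adhesion molecules. Of its 38 tested genes, 4 rose in PL and 2 fell in IF, where 4.5% and 0.397% of all tested genes did. The medians on the log2 scale were 0.25 and -0.25, against -0.06 and 0.02 over all tested genes. Cacng5, an auxiliary AMPA receptor subunit, was at 26.7 ± 4.96 CPM in IF (SD, n = 3), 157 ± 33.1 in EDL, 190.2 ± 44.1 in TA, 206 ± 32.6 in GS and 367 ± 313 in PL. It fell in IF by 3.03 ± 0.46 (log2, adjusted p = 0.00203) and rose in PL by 1.70 ± 0.33 (adjusted p = 0.00821). Its relative Cacng7 fell in IF by 1.87 ± 0.41 (adjusted p = 0.0292), and Nptxr and Cblb rose in PL by 1.38 and 1.58. Cblb was on the list but encodes a ubiquitin ligase, which is none of the kinds of partner named above. Without PL 2 and PL 3 none of the 4 was called in PL, with Cacng5 at 1.06 ± 0.34 (adjusted p = 0.433), Nptxr at 0.27 and Cblb at 0.03, while 3 of 39 tested partners fell in IF, Cacng5 at -2.84 and Cacng7 at -1.67 among them, and 1 rose there (Olfm3, at 1.81, adjusted p = 0.000545, named after its value was seen). In that fit the median log2 fold of the 39 in TA was 0.09, against 0.04 for the 38 tested with all 15 libraries.

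Of all tested genes 4.5% rose in PL and 0.397% fell in IF, the shares to set beside the counts that follow. Of 19 tested partners of inhibitory receptors 3 rose in PL and 0 fell in IF, with medians of 0.32 and 0.10. Nlgn2, an adhesion molecule of inhibitory synapses, was at 950 ± 550 CPM in PL (SD, n = 3) and 201 ± 43.0 in IF, and rose in PL by 1.53 ± 0.30 (log2, adjusted p = 0.00783). Kctd16, an auxiliary GABA-B subunit, was at 92.8 ± 160 CPM in PL and at 0.199 to 1.34 in the other pool means. None of the 3 was called without PL 2 and PL 3, with Nlgn2 at 0.20 and Kctd16 at -1.61. Of 15 tested genes of transmitter synthesis and transport, 2 rose in PL, Slc1a1, a glutamate transporter, among them, and 1 fell in IF (Slc1a2, a glutamate transporter that is also on the astrocyte list). These were named after their values were seen. Neither of the 2 was called in PL without PL 2 and PL 3, with Slc1a1 at -0.45. None of 6 tested chloride transporters and of 5 tested receptor subunits outside the name rule was called in any pool with all 15 libraries.

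The closest pattern to that of Glra1 over the 15 libraries was that of Grin1, with a Pearson correlation of log2 CPM of 0.88 and a Spearman correlation of 0.86. The highest of all pairs was Gria1 with Grin2a, at 0.88 and 0.71. These values describe the 15 libraries, which share depth and, in PL 2 and PL 3, many genes at 0, and the first pair was chosen after its values were seen.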

How the data were processed

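The 38 receptor genes and all gene lists were chosen with earlier results of these data known. Per the submitters' processing notes, reads were aligned with Bowtie 0.12.9 to mm9 and pools were compared with DESeq; the tool that counted reads per gene is not given in the sources used here. In its columns the deposited table holds read counts per gene for each library as the authors summarised them, and the RPKM values the authors computed from counts and gene length. The authors' deposited lists of genes that differ between pools give a fold ratio, a p-value and an adjusted p-value, which are quoted as theirs. The library kit does not mark strand, per the labels.

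From the counts, 4 genes with negative cells (16 cells) were left out. Genes with low counts were filtered (filterByExpr), which left 14340 of 36814, and edgeR 4.0.16 (R 4.3.3) fitted all 15 libraries by pool with TMM scaling and a common estimate of the spread. Its quasi-likelihood test gave every p named here without another source, adjusted by Benjamini-Hochberg over all tested genes and called under 0.05. There were 16 comparisons: any difference, every pool against the mean of the 4 others, and the 10 pairs. A SE is the log2 fold divided by the square root of F. Levels within a gene are TMM-scaled CPM, and levels between genes are RPKM. Genes named with a value in every library were those called in any comparison, those of each subfamily with the smallest p for any difference and with the highest mean RPKM, and Gria2, Grin1, Gabbr1, Gabbr2, Glrb and Glra1; Gabrg3 and Grin2d were added from the authors' lists. The fit was tested on simulated counts. Alternatives were DESeq2 1.42.0, limma 3.58.1 (voom), DESeq2-style size factors, library totals alone, no filter, a block of replicate numbers, leaving out each library, and leaving out PL 2 and PL 3. Counts of 4417114 to 8488368 per library limit the precision, and limits for 0 reads cover counting error only. Promoter letters come from RefSeq for GRCm38.p6, and mm9 positions from the deposited table. Some genes that this rule names are not reported here, and their counts stay in the totals.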

Additional observations from a re-analysis of the deposited data

How the results depend on the processing

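The number of receptor genes called depended on the tool and on the filter. For any difference among the pools it was 1 with all settings as reported, 5 with DESeq2, 8 with no filter on low counts and 5 without PL 2 and PL 3. The share of all tested genes called moved as well, from 1.31% to 8.19%, 6.97% and 1.44%. For TA it was 0 as reported, 2 with DESeq2 (background 3.03%), 1 with limma voom (0.774%), 3 with no filter (2.41%) and 4 without PL 2 and PL 3 (1.44%). For EDL and GS it was 0 as reported, and 1 each with DESeq2 (0.481% and 0.397%) and with no filter (1.16% and 0.836%). For PL it was 5 as reported, 1 with limma voom (Gabrg1; background 1.19%), 1 with library totals only (Glra1; 1.03%) and 0 without PL 2 and PL 3 (0.061%). For IF it was 1 as reported, 0 with limma voom (1.94%) and 3 with no filter (2.51%). Summed over the 10 pairs it was 3 as reported, 16 with DESeq2, 23 with no filter and 9 without PL 2 and PL 3. The background of a pair then ran from 0.446% to 7.43%, from 0.196% to 2.93% and from 0.0122% to 2.77%. Leaving out 1 library at a time gave 0 to 6 genes for any difference, 0 to 1 for TA, 2 to 7 for PL, 0 to 2 for IF and 1 to 17 over the pairs. Over all tested genes these counts moved as well, from 66 to 1211 for any difference, 22 to 246 for TA and 31 to 333 for IF. For PL the count over all tested genes ran from 360 without IF 2 to 3210 without PL 1. For a single pair it ran from 0 in EDL against PL to 1986 in PL against IF.

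Gria3 in PL turned to -1.39 without PL 2 and PL 3, and ran from -0.18 (without PL 3) to 2.18 with 1 library left out. Grin3b in PL turned to -0.13 without PL 2 and PL 3, and ran from -1.06 (without PL 2) to 5.75. The cause was not tested. Of the values of single genes and shares under an alternative, 528 counted as unchanged, 71 lost the call, 20 gained it and 4 reversed. The 528 include tests for any difference, which have no direction, of genes that were not called as reported and stayed so. They also include shares, which have no threshold, so these numbers do not give the stability of the calls. DESeq2 gave no adjusted p for Grin3b in PL.

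Replicate numbers showed no clear pairing of the libraries. Correlations of deviations between libraries with the same number ran from -0.06 to 0.12, and those with other numbers from -0.07 to 0.06. Of the 15 libraries 4 were closest to their own number. Whether a number stands for shared animals or a batch is not in the labels and was not tested. With the replicate block 3 genes were called in PL (Gabrg1, Glra1 and Glra2) in place of 5, and 2 over the pairs in place of 3. The share of all tested genes called in that fit is not given here. The change is therefore not read as particular to the receptor genes. Genes of few reads such as Grm8 and Grin3b are limited by depth.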

Other observations

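Among receptor subunit genes outside the name rule, Gabrq, which encodes the GABA-A theta subunit, was the one with the smallest p. It was at 203 ± 48.3 CPM in EDL (SD, n = 3) and at 26.5 ± 19.1 in TA, 12.7 ± 20.5 in PL, 24.1 ± 21.3 in GS and 28.9 ± 8.48 in IF. Its log2 fold in EDL against the other 4 pools was 3.20 ± 0.70, which did not pass with all 15 libraries (edgeR, adjusted p = 0.0938) and was 2.83 ± 0.47 without PL 2 and PL 3 (adjusted p = 0.0138). It was named after its values were seen.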
